A study of Mus musculus with 12 samples.

Results

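The 38 genes described here encode the transcription factor ATF4, kinases upstream of it and its targets, and the unfolded protein response of the endoplasmic reticulum (ER). Each of these listed genes was read from the brightest of the probe sets annotated to that gene alone, and all 38 were found among 18195 genes with such a probe set. They were kept as an ATF4 side of 20 genes (stress kinases and phosphatase, ATF4 with its regulatory targets, and amino acid and one-carbon enzymes) and an ER side of 18 genes (sensors, chaperones and foldases, and ER-associated degradation). A filter on dim probe sets left 12673 genes for testing, with 37 of the 38. Slc7a11, the cystine transporter subunit, fell below it, with signals of 0.62 to 1.42 log2 in the 12 arrays. Vldlr, a lipoprotein receptor, passed only just, at 1.34 to 1.63 log2, and its values lie near background.

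The cells were I/11, a mouse line of immature erythroid progenitors, expanded in serum-free StemPro 34 medium with erythropoietin (EPO), stem cell factor (SCF) and dexamethasone, which all 3 lines received. The lines carried pLKO lentiviral vectors with puromycin resistance. The control, scr, expressed a scrambled shRNA, and the knockdown lines expressed PLCy1 sh 14 (sh14) or PLCy1 sh 133 (sh133), hairpins against Plcg1. Each line was sampled at 1, 6, 12 and 22 h with 1 array each. The labels give neither the event that starts the clock nor whether a line was a clone or a pool. Array titles carry 2 date strings whose meaning is not stated, and arrays with the same string are called a run here. All sh14 arrays, with the 6 and 12 h arrays of sh133, made up run 1. All scr arrays, with the 1 and 22 h arrays of sh133, made up run 2. Thus no scr array had the date string of an sh14 array, and the sh14 differences depend on a run term that only sh133 can estimate.

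Plcg1, which encodes phospholipase C gamma 1, had signals at 1, 6, 12 and 22 h of 4.74, 4.45, 4.61 and 4.31 log2 in scr, 4.16, 3.86, 4.27 and 4.30 in sh14, and 4.53, 4.35, 4.37 and 4.39 in sh133. Every sh14 array was below every scr and sh133 array, while scr and sh133 overlapped, and the knockdown difference of -0.24 ± 0.17 log2 (SE) did not pass the test (limma adjusted p = 0.592). Differences are therefore given below between lines by name. Array medians lay between 1.84 and 1.92 log2. Of 10 erythroid markers 8 were measured, and their summed linear signal went from 1858 to 4418 in scr, 1613 to 3047 in sh14 and 1892 to 3774 in sh133 between 1 and 22 h. Over the same span the sum of 9 mast cell and basophil markers went from 736 to 87.1 in scr, 370 to 103 in sh14 and 495 to 58.1 in sh133. This sum mainly reflects Hdc, with a mean of 7.32 log2, while the other markers had means of 2.30 or less. In the fit of 22 h against 1 h, 4 of the 7 tested markers were above 0 and 3 below. Of these, 2 were called higher and 3 lower, beside 8.74% and 9.34% of all tested genes. The sum of 6 megakaryocyte markers went from 112 to 68.8 in scr, 197 to 282 in sh14 and 118 to 290 in sh133. Sums of macrophage, B or plasma cell and hepatocyte markers stayed between 17.8 and 31.2, and 3 markers of each list exceeded the highest array median in any array. In bulk RNA of this kind, fewer cells of a type and less RNA per cell cannot be told apart, and the part of these markers in the results below was not tested.

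Stress kinases, among them PERK at the ER membrane and the haem-regulated kinase HRI of red cell precursors, phosphorylate the translation factor eIF2 alpha. General translation then falls while the ATF4 message is translated better, and ATF4 switches on amino acid transport and synthesis, the transcription factor CHOP and, through GADD34, its own feedback. The unfolded protein response has PERK, ATF6 and IRE1 as sensors of misfolded protein in the ER. IRE1 splices the XBP1 message, and XBP1 and ATF6 raise ER chaperones and the machinery that returns misfolded proteins to the cytosol for degradation. In erythroid cells HRI and ATF4 are known for matching globin synthesis to haem supply.

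Promoters of the listed genes carry known response elements, and 6 windows are shown, all of genes called in a comparison below, because their elements separate both arms of the response. They are RefSeq sequence of assembly GRCm38.p6, printed 5′ to 3′ on the gene's strand, with the matched letters in capitals. A match on the opposite strand appears as its reverse complement. Promoters were windows from 250 bases before to 50 after the annotated start, and 36 of the 38 genes had one. The ER stress element (ERSE: CCAAT and CCACG with 9 bases between, on either strand) is a known binding site of ATF6.
Calr (chr8:84847045-84847123, minus strand): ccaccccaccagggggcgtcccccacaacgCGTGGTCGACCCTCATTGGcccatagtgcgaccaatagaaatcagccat
Creld2 (chr15:88819490-88819568, plus strand): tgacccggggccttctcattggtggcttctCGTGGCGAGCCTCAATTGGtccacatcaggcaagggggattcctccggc
Pdia6 (chr12:17266461-17266539, plus strand): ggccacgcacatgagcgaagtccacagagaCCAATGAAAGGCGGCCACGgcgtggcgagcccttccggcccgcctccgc
The second set holds the core of the site that ATF4 binds with C/EBP partners (CARE core: TGATGNAA on either strand).
Chac1 (chr2:119351019-119351086, plus strand): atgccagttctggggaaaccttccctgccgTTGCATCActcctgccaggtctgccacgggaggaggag
Nupr1 (chr7:126625543-126625610, minus strand): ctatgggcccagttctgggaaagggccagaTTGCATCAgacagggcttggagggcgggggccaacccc
Herpud1 held both a CARE core and an ERSE-II (ATTGG and CCACG with 1 base between).
Herpud1 (chr8:94386287-94386417, plus strand): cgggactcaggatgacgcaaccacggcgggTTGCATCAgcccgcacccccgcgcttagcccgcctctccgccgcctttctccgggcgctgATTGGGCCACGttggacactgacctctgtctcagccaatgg

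The elements were divided between the arms, but they were chosen as known elements of these arms, so the division tests nothing. The ERSE was in 8 listed promoters, all on the ER side (Calr, Canx, Creld2, Dnajc3, Hsp90b1, Hspa5, Pdia6 and Syvn1), against 0.137% of 27025 genes. The CARE core was in 8, of which 7 were on the ATF4 side (Asns, Chac1, Nupr1, Pck2, Slc7a11, Trib3 and Vldlr) and the other was Herpud1, against 4.51% of genes. The ERSE-II was found in Herpud1 among the listed genes and in 0.0444% of all genes. The UPR element TGACGTGG was in 0 listed promoters and in 0.714% of genes. The ERSE-II overlaps no CARE core in Herpud1. Matches are letters in a window and say nothing of binding in these cells.

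**Figure D1:**
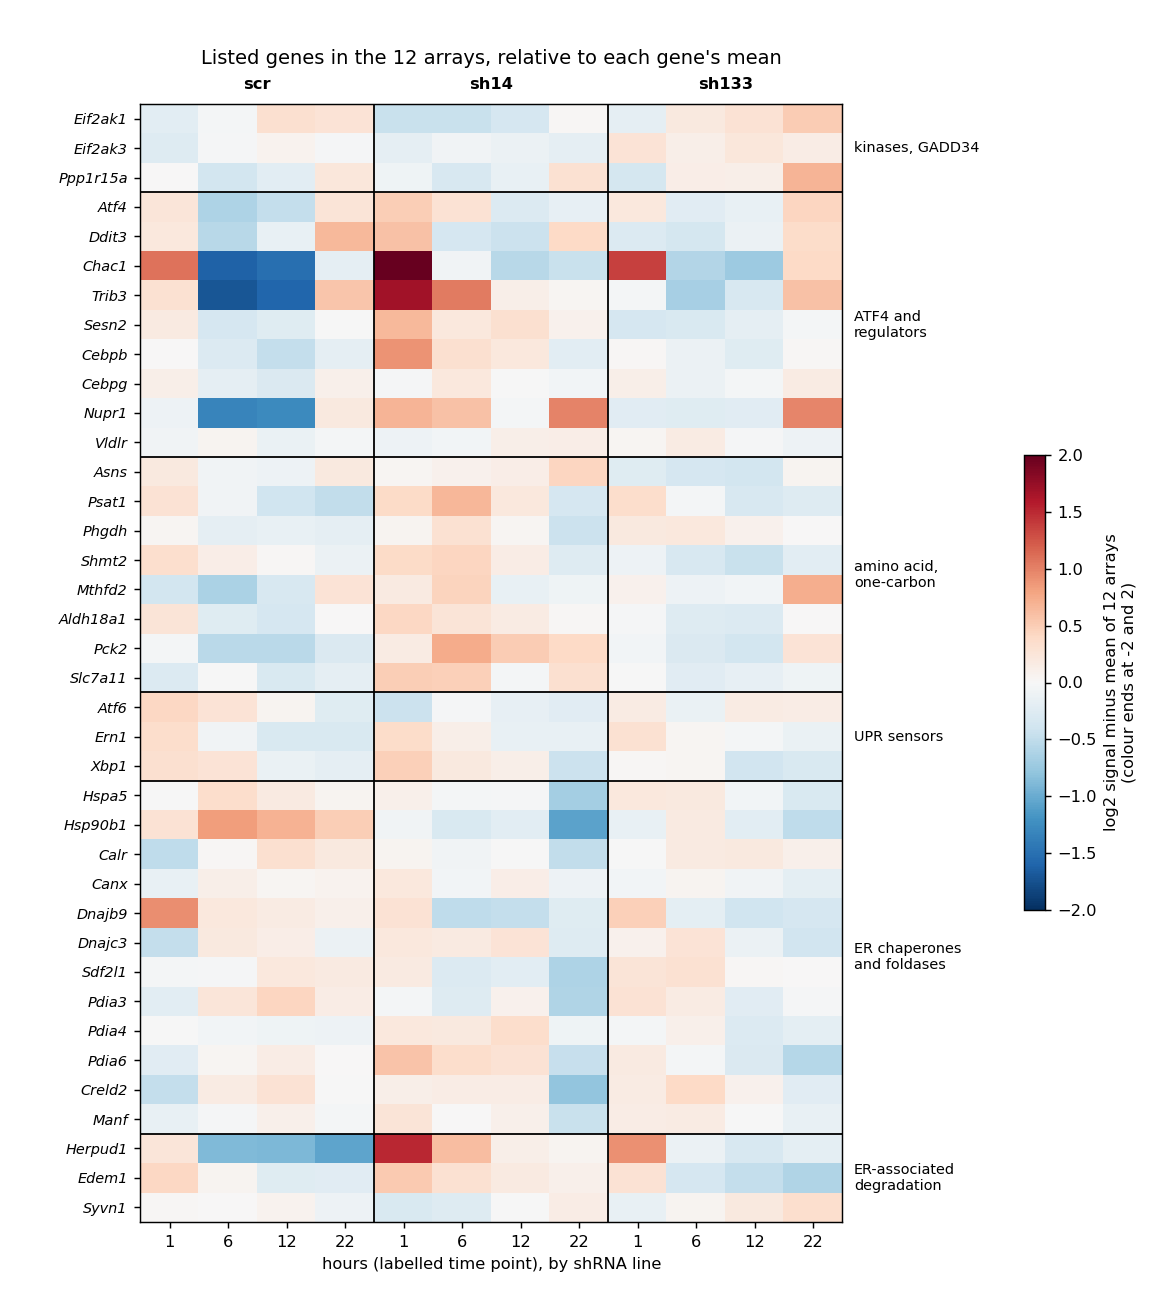
Signals of the 38 listed genes in the 12 arrays, as the log2 signal minus the mean of each gene over the 12 arrays (colour), with genes in rows grouped by role and arrays in columns by line and labelled hour. The colour scale ends at -2 and 2. Herpud1 is darkest red at 1 h in sh14 among the ER side, and Chac1, Trib3 and Nupr1 are darkest blue at 6 and 12 h in scr.

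The first comparison asked how the listed genes differed between the hairpin lines and scr, in a series on phospholipase C gamma 1 in the differentiation that the erythropoietin receptor directs. Herpud1, an ER membrane protein of ER-associated degradation, was higher in both hairpin lines, and Dnajb9, an ER co-chaperone that acts on the sensor IRE1, was lower in sh133. No other listed gene passed the test against scr. Of 37 tested genes 1 was called for both hairpins together, 1 for sh14 and 2 for sh133. Among all tested genes the limma test called 2.18% for the hairpins together, 3.06% for sh14 and 4.91% for sh133, so the listed genes' shares are near the background. The medians of the ATF4 side, the ER side and all tested genes were 0.21, 0.06 and 0.01 log2 for the hairpins together.

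Herpud1 signals at 1, 6, 12 and 22 h were 6.05, 4.93, 4.92 and 4.76 log2 in scr, 7.32, 6.43, 5.94 and 5.87 in sh14, and 6.73, 5.70, 5.50 and 5.62 in sh133. At every hour scr was lowest, sh133 intermediate and sh14 highest, although the lines overlap when hours are pooled. Both hairpins together stood 2.10-fold above scr (1.07 ± 0.15 log2, SE, 8 arrays against 4, limma adjusted p = 0.00707). The sh14 difference was 1.35 ± 0.19 (adjusted p = 0.00544), and that of sh133 was 0.79 ± 0.13 (adjusted p = 0.00758). Within run 2, which holds both lines at 1 and 22 h, sh133 exceeded scr by 0.77 ± 0.15 (adjusted p = 0.0418, with 2.0% of all genes called in that fit). A second, dimmer Herpud1 probe set gave 5.45, 4.51, 4.48 and 4.32 in scr, 6.81, 5.90, 5.29 and 5.18 in sh14, and 6.14, 5.18, 4.92 and 5.20 in sh133, the same order of the lines at 1, 6 and 12 h, with sh133 above sh14 at 22 h. Without the sh133 array at 22 h the difference of the hairpins together was 0.94 (adjusted p = 0.0699) and that of sh133 0.66 (adjusted p = 0.134), and without the sh133 array at 6 h the sh14 difference was 1.33 (adjusted p = 0.05). The median difference of the 40 tested genes nearest to Herpud1 on chromosome 8 was 0.10 in sh14 and 0.08 in sh133.

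Dnajb9 read 5.83, 5.10, 5.06 and 4.99 in scr, 5.18, 4.39, 4.42 and 4.65 in sh14, and 5.38, 4.70, 4.50 and 4.56 in sh133. It was below scr at each hour in both hairpin lines, and the lines overlap when hours are pooled. The sh133 difference was -0.48 ± 0.12 (adjusted p = 0.0434), while sh14 gave -0.64 ± 0.18 (adjusted p = 0.0844). The sh133 call held without the scr array at 22 h or the sh14 array at 1 or 22 h, and leaving out any of the other 9 arrays ended it, with adjusted p between 0.0722 and 0.322, and within run 2 the difference was -0.44 (adjusted p = 0.218). Its 40 neighbours on chromosome 12 had a median difference of -0.34 in sh133 and 0.12 in sh14.

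Hsp90b1, the ER-resident HSP90 chaperone GRP94, was at 8.87, 9.41, 9.27 and 9.07 in scr, 8.51, 8.27, 8.37 and 7.51 in sh14, and 8.42, 8.75, 8.35 and 8.07 in sh133. Every hairpin array was below every scr array. In sh14 the difference of -0.96 ± 0.32 and in sh133 that of -0.74 ± 0.21 did not pass the test (limma adjusted p = 0.152 and 0.0826). In the fit with no run term sh14 gave -0.99 (adjusted p = 0.000703) and sh133 gave -0.76 (adjusted p = 0.00714), and within run 2 sh133 gave -0.73 (adjusted p = 0.0841). A dimmer probe set was also lower in every hairpin array, at 8.11 to 8.60 in scr and 6.71 to 7.73 in the hairpin lines. Of the 37 genes, Herpud1 and Psat1 were above scr in all 8 matched differences of hairpin and scr arrays of the same hour. Hsp90b1 and Dnajb9 were below in all 8. Among all tested genes 6.81% were above and 5.89% below throughout, so the listed genes' shares are near the background. A second, dimmer Psat1 probe set was slightly lower in sh133 than in scr at 1 h (8.60 against 8.65) and 6 h (8.48 against 8.51).

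Among the amino acid and one-carbon enzymes, Pck2, the mitochondrial enzyme that makes phosphoenolpyruvate, was at 6.90, 6.39, 6.40 and 6.64 in scr, 7.10, 7.68, 7.45 and 7.33 in sh14, and 6.88, 6.65, 6.57 and 7.21 in sh133. All sh14 arrays lay above all scr arrays, but the difference of 1.23 ± 0.31 log2 did not pass the test (adjusted p = 0.0631); with no run term it was 0.81 (adjusted p = 0.00403). Mthfd2, a mitochondrial folate enzyme, was at 6.43, 6.16, 6.48 and 7.07 in scr, 6.98, 7.24, 6.66 and 6.71 in sh14, and 6.88, 6.71, 6.75 and 7.53 in sh133. The lines overlapped, and the sh133 difference of 0.59 ± 0.25 did not pass (adjusted p = 0.254).

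With no run term in the fit, the counts were larger: 6 listed genes were called for the hairpins together (background 16.2%), 12 for sh14 (23.7%) and 4 for sh133 (12.6%). The genes called for the hairpins together in that fit were Herpud1, Nupr1, Chac1 and Pck2 above scr, and Hsp90b1 and Dnajb9 below. Nupr1, a stress-induced chromatin protein, was at 4.75, 3.53, 3.58 and 5.04 in scr, 5.53, 5.42, 4.80 and 5.84 in sh14, and 4.62, 4.60, 4.62 and 5.83 in sh133. The lines overlapped when hours were pooled, with sh14 above scr at each hour and sh133 above scr at 3 of 4. Without the run term Nupr1 differed by 1.18 in sh14 (adjusted p = 0.00127) and 0.69 in sh133 (adjusted p = 0.0412), and with it by 0.83 ± 0.40 (adjusted p = 0.330) and 0.52 ± 0.26 (adjusted p = 0.347). Run and line cannot be told apart between sh14 and scr except through the sh133 arrays.

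**Figure D2:**
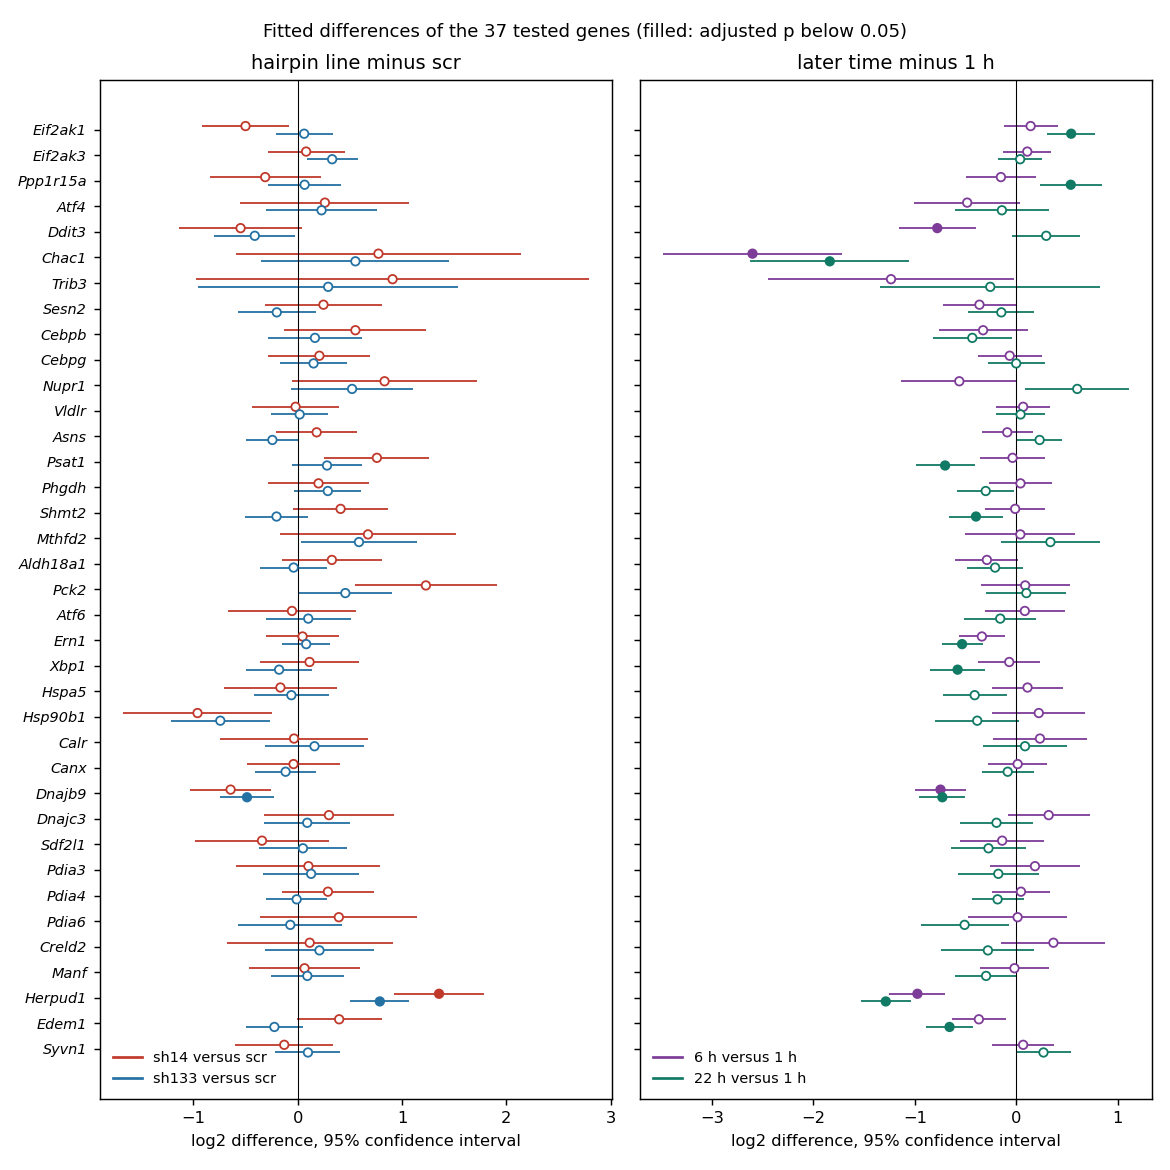
Fitted log2 differences of the 37 tested genes with 95% confidence intervals (horizontal lines), each hairpin line minus scr on the left and 6 or 22 h minus 1 h on the right, from the limma model with line, time and run. Filled points passed an adjusted p of 0.05. Herpud1 is filled for sh14 and sh133 and for both times, and Chac1 has the largest time differences.

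The second comparison set the hairpin lines against each other. Relative to sh133, sh14 had higher levels of the amino acid and one-carbon genes Asns, Pck2 and Shmt2 and of the degradation genes Edem1 and Herpud1, and lower Eif2ak1, the kinase HRI. These were 6 of 37 listed genes, against 14.6% of all tested genes, with 5 higher (background 7.54%) and 1 lower (background 7.11%). The median was 0.22 log2 over the ATF4 side, -0.03 over the ER side and 0.00 over all tested genes. Within run 1, which holds both lines at 6 and 12 h, 11 listed genes were called (background 18.7%), all 6 of these among them.

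Asns, asparagine synthetase, was at 9.65, 9.39, 9.35 and 9.65 in scr, 9.50, 9.54, 9.59 and 9.90 in sh14, and 9.22, 9.12, 9.09 and 9.52 in sh133. Each sh14 array was above the sh133 array of its hour, and the fitted difference was 0.42 ± 0.11 (limma adjusted p = 0.0338). For Pck2, with the values given above, sh14 exceeded sh133 by 0.77 ± 0.20 (adjusted p = 0.0301), and within run 1 by 0.95 (adjusted p = 0.00511). Shmt2, which feeds serine into mitochondrial folate metabolism, was at 7.86, 7.66, 7.56 and 7.42 in scr, 7.91, 7.97, 7.68 and 7.27 in sh14, and 7.43, 7.21, 7.08 and 7.32 in sh133. It was higher in sh14 at 1, 6 and 12 h and about level at 22 h, with a difference of 0.61 ± 0.14 (adjusted p = 0.0135). The next brightest Shmt2 probe set was higher in sh14 at 6 and 12 h. It was level at 1 h (6.79 in sh14 and sh133) and lower in sh14 at 22 h (6.43 against 6.57).

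Edem1, a lectin that hands misfolded glycoproteins to degradation, was at 5.63, 5.26, 4.97 and 4.99 in scr, 5.74, 5.52, 5.39 and 5.32 in sh14, and 5.51, 4.88, 4.74 and 4.60 in sh133. At each hour sh14 was highest and sh133 lowest, and they differed by 0.62 ± 0.12 (adjusted p = 0.00801). The 40 nearest tested genes of Edem1 on chromosome 6 had a median difference of 0.33, while those of the other 5 genes (32 neighbours for Asns, 40 for the rest) lay between -0.04 and 0.06. For Herpud1 the lines differed by 0.57 ± 0.13 (adjusted p = 0.0149). Eif2ak1 was at 4.58, 4.75, 5.11 and 5.06 in scr, 4.35, 4.34, 4.46 and 4.81 in sh14, and 4.61, 4.99, 5.08 and 5.30 in sh133. Here sh14 was lowest at every hour, by 0.56 ± 0.12 below sh133 (log2 difference -0.56, adjusted p = 0.0132). PERK itself, Eif2ak3, was at 3.69, 3.92, 4.02 and 3.92 in scr, 3.77, 3.87, 3.83 and 3.77 in sh14, and 4.22, 4.06, 4.18 and 4.10 in sh133. Every sh133 array was above every sh14 array, but the difference of -0.25 ± 0.11 did not pass the test (adjusted p = 0.173). With no run term limma called it (-0.33, adjusted p = 0.0147), and within run 1 it did not (-0.27, adjusted p = 0.12). Each of the 6 calls was lost without the sh133 array at 6 h and without that at 12 h, with differences then of 0.41 to 0.79 for the 5 higher genes. Calls were also lost without sh14 at 6 h (Eif2ak1, Asns, Shmt2, Pck2, Herpud1), sh14 at 12 h (Eif2ak1, Asns, Shmt2, Pck2, Edem1) and scr at 6 or 12 h (Asns). With the mean over its probe sets Eif2ak1 gave -0.31 (adjusted p = 0.0501).

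**Figure D3:**
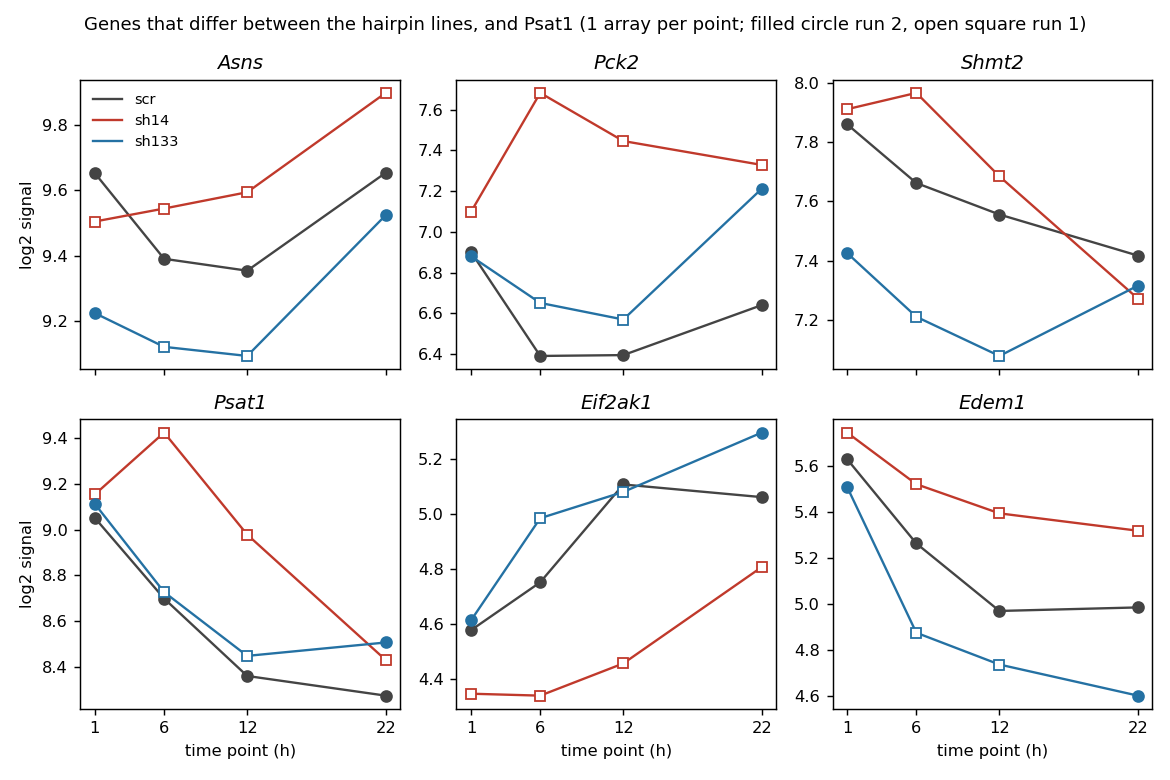
Log2 signal (vertical axes, each with its own range) of Asns, Pck2, Shmt2, Psat1, Eif2ak1 and Edem1 against the labelled hour (horizontal axes) in scr, sh14 and sh133. Each point is 1 array, filled circles are run 2 and open squares run 1. For Edem1 sh14 is above sh133 at all 4 hours, and for Eif2ak1 below it.

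The third comparison followed the lines over time. Between 1 and 6 h, Chac1, Ddit3, Herpud1 and Dnajb9 fell. Chac1 encodes an enzyme that degrades glutathione, and Ddit3 encodes CHOP. These 4 were all lower, against 4.86% of all tested genes called and 1.93% called lower. Between 12 and 22 h Ddit3 and Nupr1 rose, 2 of 37 against 1.25% of all genes called and 0.426% called higher. From 6 to 12 h limma called 0 listed genes and 0.00789% of all genes. An unadjusted p under 0.05 was reached by 2 of 37 listed genes and 671 of all 12673, which are similar shares.

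Chac1 was at 5.63, 2.92, 3.04 and 4.36 log2 in scr, 7.38, 4.46, 3.99 and 4.10 in sh14, and 5.91, 3.95, 3.81 and 4.94 in sh133. Its 3 arrays at 1 h were above all 9 later ones. From 1 to 6 h it fell 6.07-fold (-2.60 ± 0.40 log2, SE, 3 arrays at each hour, limma adjusted p = 0.00681), and from 1 to 22 h 3.58-fold (-1.84 ± 0.35, adjusted p = 0.00567). Without the scr array at 6 h the earlier step was -2.36 (adjusted p = 0.0739), and without the sh14 array at 22 h the difference over the whole span was -1.22 (adjusted p = 0.00178). Ddit3 was at 7.10, 6.32, 6.74 and 7.54 in scr, 7.47, 6.54, 6.45 and 7.28 in sh14, and 6.61, 6.54, 6.77 and 7.25 in sh133. It was low at 6 and 12 h in scr and sh14 and highest or second highest at 22 h in all lines. The steps were -0.78 ± 0.17 from 1 to 6 h (adjusted p = 0.0316) and 0.89 ± 0.17 from 12 to 22 h (adjusted p = 0.0431), and both lost their call with no run term (-0.59, adjusted p = 0.0732, and 0.70, adjusted p = 0.088). Leaving out scr or sh14 at 1 or 6 h, or sh133 at 6 or 12 h, ended the first call (adjusted p up to 0.199), and the second held only without scr at 1 h or sh14 at 1 or 22 h (adjusted p otherwise up to 0.278). Nupr1 rose by 1.35 ± 0.26 log2 from 12 to 22 h (adjusted p = 0.0431), highest at 22 h in every line, and lost that call without scr at 6, 12 or 22 h, sh14 at 12 h or any sh133 array (adjusted p up to 0.248).

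The gene Atf4 itself was at 8.91, 8.06, 8.19 and 8.93 in scr, 9.17, 8.97, 8.39 and 8.50 in sh14, and 8.88, 8.45, 8.53 and 9.10 in sh133. In scr and sh133 its values at 6 and 12 h were below those at 1 and 22 h, and in sh14 they declined to 12 h. A second, dimmer Atf4 probe set had the dip in scr (6.91, 6.66, 6.71 and 7.54). It rose throughout in sh133 (6.64, 7.08, 7.29 and 7.34) and fell throughout in sh14 (7.82, 7.23, 6.98 and 6.83). The steps of -0.48 ± 0.23 from 1 to 6 h and 0.46 ± 0.23 from 12 to 22 h did not pass the test (adjusted p = 0.306 and 0.342). Trib3, a pseudokinase that damps ATF4 signalling, was at 5.56, 3.55, 3.68 and 5.82 in scr, 6.93, 6.30, 5.38 and 5.30 in sh14, and 5.23, 4.59, 4.95 and 5.84 in sh133. The scr arrays at 6 and 12 h stood lowest of the 12, and the steps of -1.24 ± 0.55 and 1.12 ± 0.55 did not pass (adjusted p = 0.256 and 0.324). Cebpb, a C/EBP partner of ATF4, was at 6.34, 6.06, 5.85 and 6.15 in scr, 7.23, 6.65, 6.53 and 6.12 in sh14, and 6.36, 6.22, 6.09 and 6.36 in sh133. It had no call in the fits of all 12 arrays with a run term, but was called for sh14 against scr with no run term (0.54, adjusted p = 0.0198) and against sh133 within run 1 (0.44, adjusted p = 0.0296).

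A dip in which both middle arrays lay below both outer ones was shared by 12 of the 19 tested genes of the ATF4 side in scr (63.2%) and 11 in sh133 (57.9%), but by 3 in sh14 (15.8%). Among all tested genes it was present in 15.4%, 15.8% and 11.3%. On the ER side it was present in 0 of 18 genes in scr, 0 in sh133 and 1 in sh14. The genes with a dip in scr were Atf4, Ddit3, Chac1, Trib3, Sesn2, Cebpb, Cebpg, Nupr1, Ppp1r15a, Asns, Aldh18a1 and Pck2. Nupr1 was the 1 gene with it in all 3 lines, but in sh133 it was nearly level at 1, 6 and 12 h (4.6175, 4.6021 and 4.6169 log2). A second, dimmer Nupr1 probe set had the dip in scr and sh14 but rose throughout in sh133 (4.17, 4.39, 4.49 and 5.34). The shape was chosen after the values were seen and has no test, each point is 1 array, and in sh133 the middle and outer arrays are also of different runs, which in scr they are not.

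**Figure D4:**
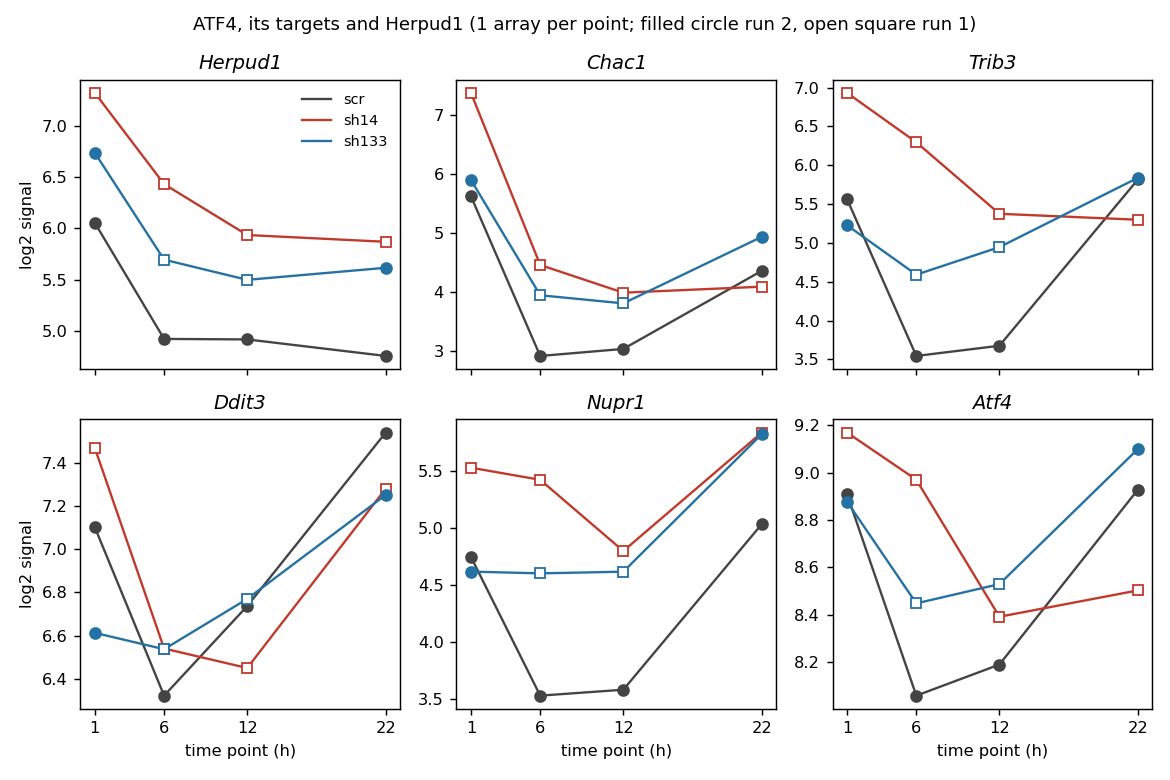
Log2 signal (vertical axes, each with its own range) of Herpud1, Chac1, Trib3, Ddit3, Nupr1 and Atf4 against the labelled hour (horizontal axes) in scr, sh14 and sh133, 1 array per point, with run 2 as filled circles and run 1 as open squares. In scr Chac1, Trib3, Nupr1, Ddit3 and Atf4 are lower at 6 and 12 h than at 1 and 22 h, while Herpud1 falls from 6.05 to 4.93 and stays low.

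Across the whole span, from 1 to 22 h, 10 of 37 listed genes were called, 2 higher and 8 lower, against 18.1% of all tested genes (8.74% higher and 9.34% lower). The 8 that fell were Chac1, Psat1 and Shmt2 on the ATF4 side, and Herpud1, Edem1, Dnajb9, Ern1 and Xbp1 on the ER side. The 2 that rose, Eif2ak1 and Ppp1r15a, belong to the kinases and phosphatase. On the ER side 16 of 18 fitted differences were below 0, with a median of -0.29 log2, against 0.00 on the ATF4 side and 0.02 over all tested genes. Over the same span all 7 tested erythroid markers were higher (median 0.95 log2), among them Alas2, the erythroid enzyme of haem synthesis, and Gata1.

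Herpud1 fell by 1.29 ± 0.11 log2 from 1 to 22 h (limma adjusted p = 6.72e-05), most of it, 0.97 ± 0.12, by 6 h (log2 difference -0.97, adjusted p = 0.0034). In each line its 1 h array was the highest. Dnajb9 likewise fell by 0.75 ± 0.11 by 6 h (adjusted p = 0.00681, and 0.0575 without scr or 0.0535 without sh14 at 6 h) and fell by 0.73 ± 0.10 by 22 h (adjusted p = 0.000946). Edem1 fell by 0.66 ± 0.11 over the span (adjusted p = 0.00224), and in every line its 1 h array was the highest. Ern1, which encodes IRE1, was at 4.52, 4.09, 3.86 and 3.86 in scr, 4.52, 4.28, 4.01 and 4.01 in sh14, and 4.46, 4.19, 4.12 and 4.03 in sh133. Its 3 arrays at 1 h lay above all later ones, and it fell by 0.53 ± 0.09 (adjusted p = 0.00303), whereas the mean over its probe sets gave -0.17 (adjusted p = 0.201). The other Ern1 probe sets in that mean were dim, with means of 0.92 to 2.58 log2. Xbp1 was at 8.04, 7.99, 7.60 and 7.54 in scr, 8.20, 7.92, 7.84 and 7.29 in sh14, and 7.74, 7.76, 7.35 and 7.41 in sh133. It fell by 0.58 ± 0.12 (adjusted p = 0.00973), with values at 12 and 22 h below those at 1 h in each line, and with the 1 and 22 h arrays alone the adjusted p was 0.0681. Spliced and unspliced Xbp1 were not measured apart.

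Psat1, which makes phosphoserine for serine synthesis, was at 9.05, 8.70, 8.36 and 8.28 in scr, 9.15, 9.42, 8.98 and 8.43 in sh14, and 9.11, 8.73, 8.45 and 8.51 in sh133. It fell by 0.70 ± 0.13 log2 from 1 to 22 h (adjusted p = 0.00488), with a peak at 6 h in sh14 alone. A second, dimmer Psat1 probe set had no such peak in sh14 (9.08, 9.06, 8.77 and 8.19). Shmt2 fell by 0.40 ± 0.12 (adjusted p = 0.0425), a call that held only without sh14 at 6 h or sh133 at 1 or 22 h (adjusted p otherwise up to 0.146, with -0.26 log2 without sh14 at 22 h) and was lost with no run term (adjusted p = 0.0563). Eif2ak1 rose by 0.54 ± 0.11 (adjusted p = 0.00672), and its 22 h value was above its 1 h value in each line. Without sh133 at 1 or 22 h the difference was 0.47 (adjusted p = 0.0585). Ppp1r15a, which encodes GADD34, the subunit that directs a phosphatase to eIF2 alpha, was at 5.87, 5.50, 5.66 and 6.09 in scr, 5.78, 5.55, 5.72 and 6.16 in sh14, and 5.52, 6.00, 5.99 and 6.54 in sh133. It was highest at 22 h in each line and rose by 0.54 ± 0.14 (adjusted p = 0.0234); without the sh133 array at 1 or 22 h the difference was 0.30 (adjusted p = 0.144).

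The time courses of the 12 chaperones and foldases had different signs by line. From 1 to 22 h, 10 of 12 were higher and 2 lower in scr (median 0.22 log2), 0 higher and 12 lower in sh14 (median -0.63), and 1 higher and 11 lower in sh133 (median -0.34). From 1 to 6 h, 10 of 12 were higher in scr (median 0.31), 1 in sh14 (median -0.23) and 8 in sh133 (median 0.08). Of all 12673 tested genes, 6803, 6524 and 6458 were higher at 22 h than at 1 h in scr, sh14 and sh133 (medians 0.03, 0.01 and 0.01). At 6 h 6514, 7393 and 6698 were higher than at 1 h (medians 0.01, 0.05 and 0.02). The lowest array was that at 22 h for 2 of 12 genes in scr, 11 in sh14 and 8 in sh133, against 28.5%, 32.5% and 29.4% of all tested genes. In scr 7 of 12 (Creld2, Dnajc3, Hsp90b1, Hspa5, Manf, Pdia3 and Pdia6) were higher at both 6 and 12 h than at both 1 and 22 h, against 18.5% of all tested genes. These counts describe single arrays and have no test.

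The test of the difference between time courses compared slopes, in log2 units per doubling of hours. Relative to scr, the slope in sh14 was lower for 3 listed genes, Calr, Creld2 and Pdia6. Of all tested genes 2.79% were called and 0.552% called lower. An unadjusted p under 0.05 was reached by 15 of 37 listed genes and by 2775 of all 12673. For sh133 limma called 0 listed genes and 0.0237% of all genes, with 9 listed genes and 1572 of all 12673 at an unadjusted p under 0.05. Between sh14 and sh133 it called 0 listed genes and 0.0158% of all genes, so no listed gene was shown to differ in slope between the hairpin lines. There 7 listed genes and 1577 of all 12673 had an unadjusted p under 0.05. The slopes of both lines share the scr arrays.

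Calr, the calcium-binding lectin chaperone calreticulin, was at 8.79, 9.32, 9.62 and 9.49 in scr, 9.35, 9.23, 9.28 and 8.80 in sh14, and 9.28, 9.48, 9.50 and 9.40 in sh133. It went up in scr after 1 h and down in sh14 by 22 h, a slope difference of -0.27 ± 0.04 (limma adjusted p = 0.0319), beside -0.13 ± 0.04 for sh133 (adjusted p = 0.285). Creld2, a secreted ER stress protein with disulphide isomerase activity, was at 5.33, 5.97, 6.11 and 5.80 in scr, 5.93, 5.95, 5.96 and 5.01 in sh14, and 5.97, 6.21, 5.89 and 5.58 in sh133. Its lowest arrays were sh14 at 22 h and scr at 1 h, and its slope in sh14 differed from that in scr by -0.28 ± 0.06 (adjusted p = 0.0476), beside -0.20 ± 0.06 in sh133 (adjusted p = 0.259). Pdia6, a protein disulphide isomerase, was at 6.40, 6.66, 6.78 and 6.64 in scr, 7.19, 6.97, 6.92 and 6.16 in sh14, and 6.80, 6.59, 6.34 and 6.06 in sh133. It declined with each hour in both hairpin lines but not in scr, with a slope difference of -0.26 ± 0.05 in sh14 (adjusted p = 0.0492), beside -0.21 ± 0.05 in sh133 (adjusted p = 0.237). The Calr call held only without sh14 at 6 or 12 h, and those of Creld2 and Pdia6 only without sh14 at 12 h. For Pdia6 the mean over its probe sets gave -0.09 (limma adjusted p = 0.293), but its other probe set lies near background (mean 1.39 log2). Without the sh14 array at 22 h the slope differences of Calr, Creld2 and Pdia6 were -0.25, -0.21 and -0.18. Without the scr array at 1 h they were -0.34, -0.45 and -0.43.

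Hspa5, the main ER chaperone BiP, was at 9.43, 9.79, 9.63 and 9.50 in scr, 9.55, 9.41, 9.43 and 8.77 in sh14, and 9.66, 9.64, 9.40 and 9.14 in sh133. The hairpin lines were lowest at 22 h and scr at 1 h, but the slope difference of -0.16 ± 0.05 in sh14 (adjusted p = 0.125) and the span of -0.41 ± 0.14 from 1 to 22 h (adjusted p = 0.0724) did not pass the test. Pdia3, a disulphide isomerase that works with calreticulin, was at 8.20, 8.65, 8.84 and 8.56 in scr, 8.38, 8.15, 8.49 and 7.81 in sh14, and 8.71, 8.58, 8.18 and 8.38 in sh133, with no call in any comparison. The lines overlapped, and the sh14 array at 22 h was the lowest.

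**Figure D5:**
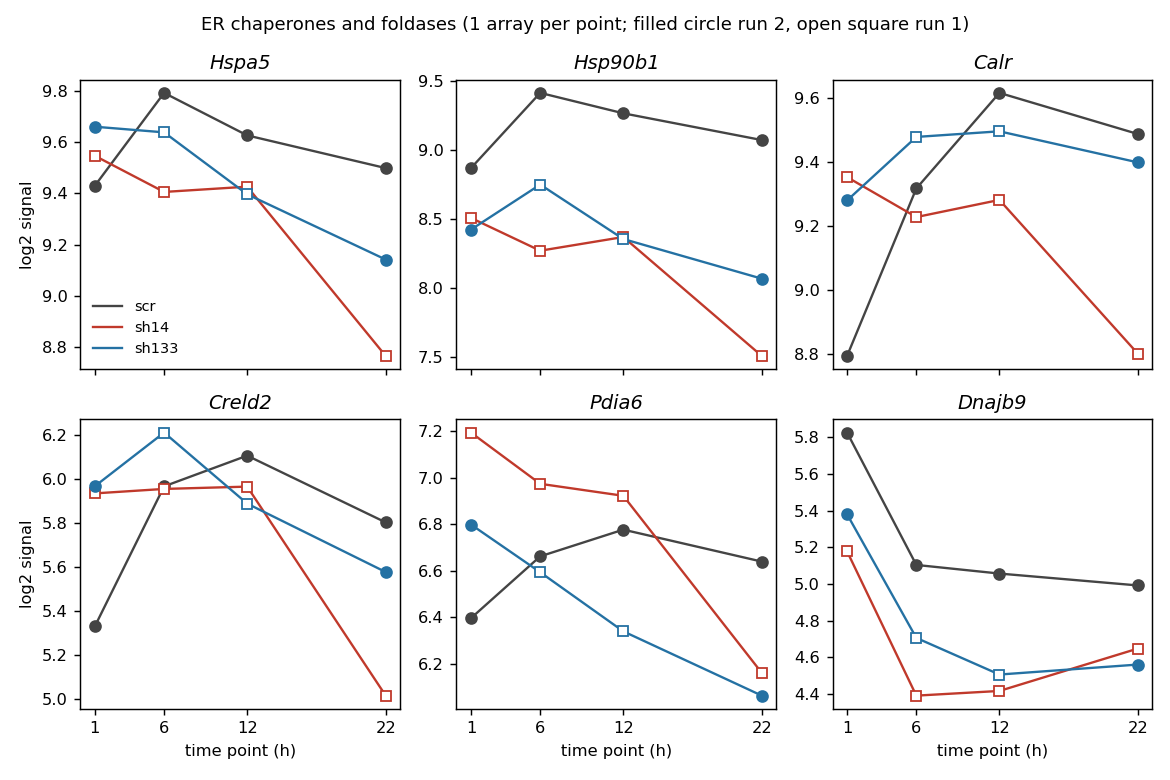
Log2 signal (vertical axes, each with its own range) of Hspa5, Hsp90b1, Calr, Creld2, Pdia6 and Dnajb9 against the labelled hour (horizontal axes) in scr, sh14 and sh133, 1 array per point, with run 2 as filled circles and run 1 as open squares. For Calr, Creld2 and Pdia6 scr starts lowest at 1 h and sh14 declines to 22 h, and for Hsp90b1 every hairpin array is below every scr array.

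Of the remaining listed genes, Sesn2, Cebpg, Phgdh, Aldh18a1, Atf6, Canx, Dnajc3, Sdf2l1, Pdia4, Manf and Syvn1 were tested and not called in the fits of all 12 arrays with a run term. Within run 1, Sesn2 (0.52, adjusted p = 0.0191) and Aldh18a1 (0.47, adjusted p = 0.0259) were called higher in sh14 than in sh133. With no run term Sesn2 was called for sh14 against scr (0.42, adjusted p = 0.0292) and against sh133 (0.53, adjusted p = 0.00862), and Aldh18a1 for sh14 against sh133 (0.35, adjusted p = 0.0286). Phgdh, which starts serine synthesis, ranged from 8.93 to 9.66 log2, Aldh18a1, of proline synthesis, from 7.69 to 8.46, and Sesn2, a stress-induced regulator of nutrient signalling, from 3.17 to 4.15. Atf6 ranged from 4.26 to 5.11. Among the ER proteins, the lectin chaperone Canx ranged from 9.00 to 9.41, the growth factor-like protein Manf from 8.00 to 8.71 and the ubiquitin ligase Syvn1 from 5.70 to 6.33.

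Further genes of these pathways were read from lists of 44 measured ATF4 and stress response genes (42 tested) and 36 unfolded protein response and ER genes (35 tested). Against scr, 1 of 42 and 0 of 35 were called for the hairpins together, beside 2.18% of all tested genes. The 1 was Xpot, the tRNA exporter, at 0.74 ± 0.15 log2 (limma adjusted p = 0.0309). For sh133, against 4.91% of all tested genes, the calls were Xpot and Mars1 of 42 (1 higher and 1 lower). Of 35 they were Ero1b, Os9 and Sel1l (1 higher and 2 lower). Sel1l, the partner of Syvn1 in the degradation complex, differed by -0.61 ± 0.11 (adjusted p = 0.0112). For sh14 limma called 0 and 0, beside 3.06% of all tested genes. At an unadjusted p under 0.05 there were 8 of 42 and 7 of 35, beside 2162 of all 12673, so these shares are near the background. Between sh14 and sh133, 5 of 42 were higher, among them Atf5 by 1.05 ± 0.30 (adjusted p = 0.0449), and 5 of 35 were higher and 5 lower, against 7.54% of all tested genes higher and 7.11% lower. From 1 to 22 h, 2 of 42 were higher and 6 lower, and 0 of 35 higher and 8 lower, against 8.74% of all tested genes higher and 9.34% lower. Those that fell include Atf3, a stress-induced transcription factor, by 1.48 ± 0.21 log2 (adjusted p = 0.000901), Slc3a2, the heavy chain of amino acid transporters, by 1.11 ± 0.16 (adjusted p = 0.000978), and Selenos, of ER-associated degradation, by 0.76 ± 0.11 (adjusted p = 0.0013). Atf3 and Ddit4 fell already by 6 h, as did Bbc3, while the chaperone Hspa13 rose.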

How the data were processed

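The deposited values are log2 probe set signals from Affymetrix Mouse Genome 430 2.0 arrays hybridised with amplified, biotin-labelled RNA, made by the authors with RMA per the submitters' processing notes, version not stated. Because RMA equalises array distributions, a global shift between arrays cannot be read. Of 45101 probe sets, the platform annotation named 1 gene for 34958, several for 932 and none for 9211, and 34754 were matched by Entrez identifier to RefSeq (GRCm38.p6). The brightest probe set stood for each gene, and only genes whose mean reached 1.45 log2, the 40th percentile over probe sets, were tested. Trib3, Vldlr, Asns, Phgdh, Shmt2 and Aldh18a1 were read from probe sets of the x_at class, whose probes may hybridise with other transcripts.

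All 12 arrays were fitted with limma 3.58.1 in R 4.3.3, with line, time as a factor and run as terms (5 residual degrees of freedom). A second fit added a slope of each hairpin line on log2 hours (3 residual degrees of freedom). Adjusted p-values are Benjamini-Hochberg over 12673 genes, with a threshold of 0.05. Each line and hour has 1 array and nothing in the labels states separate cultures, so p-values measure only the spread between these arrays, which mixes technical spread with time courses particular to a line. Precision is limited by the number of arrays.

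Given with all 12 values are Atf4, Ddit3, Xbp1, Hspa5, Eif2ak1, Eif2ak3 and Herpud1, every listed gene called in any comparison, and the 3 largest differences in each comparison. Other pathway genes are named where called, at most 4 per list and comparison. Promoters are those of called genes with a motif, at most 6. The members, lists and rules were chosen with earlier results of these data known. Alternatives were no run term, other filters, the mean over probe sets, median centring, quantile normalisation, trended robust variances, single runs, the 1 and 22 h arrays alone, and leaving out each array. Figures were drawn with matplotlib 3.10.9 in Python 3.11.15.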

Additional observations from a re-analysis of the deposited data

Results flagged for a closer look

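In 8 of the 114 groups formed by a gene and a line's 4 arrays, 1 array stood far from the other 3, where chance alone gives about 1 in 20 groups. The 4 arrays of a line differ in time, so such a gap can be a step in time. At 1 h the distant array was the highest for Chac1 in sh14 (7.38 log2), Herpud1 in scr (6.05) and in sh133 (6.73), and Dnajb9 in scr (5.83). At 6 h it was the highest for Cebpg in sh14 (6.13) and the lowest for Atf6 in sh133 (4.56). At 22 h it was the highest for Nupr1 in sh133 (5.83) and the lowest for Creld2 in sh14 (5.01).

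Time courses differed between sh14 and scr, by the slope test, for Calr (-0.27 log2 per doubling of hours), Creld2 (-0.28) and Pdia6 (-0.26). In all 3 cases scr was lowest at 1 h and sh14 lowest at 22 h.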

How the results depend on the processing

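Across the 10 counts of called genes, 61 of 73 settings other than leaving out an array stayed within 1.5 times. Without the run term the counts were 6 for the hairpins together, 12 for sh14, 4 for sh133 and 1 for 22 h against 12 h. The first 3 stood beside 16.2%, 23.7% and 12.6% of all tested genes called. Quantile normalisation gave 2 for the hairpins together and 2 for sh14. Trended robust variances gave 2 for sh14 and 9 for the sh14 slope, which was 1 with no filter. The mean over probe sets gave 0 for 22 h against 12 h (limma, with the same threshold). Single runs gave 1 for sh133 against scr (2.0% of all tested genes called) and 11 for sh14 against sh133 (18.7%). The cause was not tested. For the other settings, and for the ranges that follow, the share of all genes called is not given here. Those counts describe how the calls depend on the setting and say nothing of the listed genes apart from all genes. Leaving out each array in turn gave 0 to 3 for the hairpins together, 0 to 3 for sh14, 0 to 3 for sh133, 0 to 10 for sh14 against sh133, 8 to 14 for 22 h against 1 h, 1 to 5 for 6 h against 1 h, 0 to 0 for 12 h against 6 h, 0 to 4 for 22 h against 12 h, 0 to 4 for the sh14 slope and 0 to 0 for the sh133 slope. Of 29 called gene results, 0 changed direction in any alternative run and 6 kept their call in all of them: Chac1, Psat1, Dnajb9, Herpud1 and Edem1 from 1 to 22 h, and Herpud1 from 1 to 6 h. The other 23 lost it in 122 of 569 alternatives counted over all 29. Centring or quantile normalisation moved the median of all genes by at most 0.04 log2, and the ER side's median from 1 to 6 h went from 0.03 to -0.01 under centring. By replicate number, no paired analysis was possible because the labels give no such numbers, whereas arrays of the same hour were matched across lines by the time term. With 1 array per line and hour, signals near background, as for Vldlr, resolve no difference.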
